A study of Mus musculus with 4 samples.

Results

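The small RNA came from mouse material that the protocol names sperm and the labels name testis and testicular cells. In it 6 hairpin names were followed, mmu-mir-143 and mmu-mir-145a of smooth muscle, mmu-mir-199a, mmu-mir-199b and mmu-mir-214 of stromal cells, and mmu-mir-126a of endothelium. A read was kept when it was 18 nt or longer and its annotation held only these names once copy numbers were removed. They were 81 of the 2783 distinct miRNA sequences in the 4 libraries, under 7 of 389 labels, where reads that fit both miR-199a and miR-199b keep the joint label mmu-mir-199a/mmu-mir-199b. The Mdd group held 2 libraries from mice of the C57BL strain under chronic unpredictable mild stimulation, which the study used to make them depressive-like. Their stressors changed from day to day and were restraint, social isolation, white noise, strobe light, a disturbed circadian rhythm and a cage that was empty, tilted or lined with damp sawdust. The control group held 2 libraries from C57BL mice left alone other than for food and clean cages. The labels give no age, and do not say whether animals were pooled or whether each replicate was its own animal. The p-values therefore rest on the scatter of these 4 libraries alone, and that scatter may be technical.

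The miR-143 and miR-145 hairpins come from one primary transcript and are known for holding smooth muscle cells in their contractile state. One of the miR-199a hairpins, miR-199a-2, and miR-214 are cut from a long antisense transcript of mesenchymal cells, and miR-126 lies inside Egfl7, a gene of endothelial cells. After processing, an arm of the hairpin guides the Argonaute protein to messenger RNAs through its seed, the bases 2 to 8, so that a shift of the 5′ end changes the seed and a shift of the 3′ end does not.

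The RefSeq table of the GRCm38.p6 build held 4 of the 6 hairpin names. Their mature arms are given with the seed in capitals, to show which labels share a seed and why some reads carry a joint label.
miR-199a-5p: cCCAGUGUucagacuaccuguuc
miR-199a-3p, identical to miR-199b-3p: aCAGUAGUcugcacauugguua
miR-214-5p: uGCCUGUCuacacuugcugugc
miR-214-3p: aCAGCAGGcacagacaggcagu
miR-126a-3p: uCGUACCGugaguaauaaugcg

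The 3p arms of miR-199a and miR-199b are the same 22 nt, so their reads cannot be divided between the 3 hairpins, and the joint label is this arm. The hairpins lie at chr9:21496495-21496564 (Mir199a-1, minus strand, opposite an intron of Dnm2), chr1:162217814-162217923 (Mir199a-2, plus strand) and chr2:32318460-32318569 (Mir199b, plus strand, opposite an intron of Dnm1). Mir214 follows Mir199a-2 at chr1:162223368-162223477, and both lie within an exon of Dnm3os on the same strand and opposite an intron of Dnm3. Mir126a lies at chr2:26591357-26591429 on the plus strand, within an exon of at least 1 annotated transcript of Egfl7 and an intron of Gm20532. These places are from RefSeq and GENCODE vM21, both on GRCm38, whereas the submitters name mm9.

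The most read forms of the arms show where the reads began and ended in these libraries. They are printed as read, with T, and the capitals are bases 2 to 8 of each read. The last of the miR-199a-3p forms was added after its values were seen.
miR-199a-3p, most read: aCAGTAGTctgcacattggtt
miR-199a-3p, next: aCAGTAGTctgcacattggt
miR-199a-3p, after these: cAGTAGTCtgcacattggt
miR-199a-3p, begun 1 base upstream: tACAGTAGtctgcacattggtt
miR-126a-3p, most read: tCGTACCGtgagtaataatgcg
miR-126a-3p, next: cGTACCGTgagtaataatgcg
miR-126a-3p, after these: tCGTACCGtgagtaataatg
miR-199a-5p, most read: cCCAGTGTtcagactacctgttc
miR-199a-5p, next: cCCAGTGTtcagactacctgtt
miR-199a-5p, after these: gTGTTCAGactacctgtt
miR-214-3p, most read: tACAGCAGgcacagacagg
miR-214-3p, next: aCAGCAGGcacagacaggc
miR-214-3p, after these: aCAGCAGGcacagacaggcagt

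All 81 sequences matched the genome and no annotation differed between files. The most read forms of miR-126a-3p and miR-199a-5p were the RefSeq mature arms, whereas those of miR-199a-3p and miR-214-3p were not.

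Reads of 18 nt or longer numbered 23748630 and 23806805 in Mdd replicates 1 and 2 and 9706895 and 16763277 in control replicates 1 and 2. Between 0.395% and 1.57% of them were miRNA, 71902 to 263748 reads a library, and levels below are CPM, the reads of a label for every 1000000 miRNA reads of 18 nt or longer. A genome-matched sequence was usually present in 44 and 7 copies in the Mdd libraries and in 6 and 10 in the controls, so reads are not independent molecules and a low count can rest on few of them. In Mdd replicate 1, 18 of the 36 sequences followed here had fewer reads than 11, the minimum of the copy distribution, and together they held 44 reads. The shortest reads, of 15 to 17 nt, were 1.18% and 1.27% of the total in Mdd and 24.4% and 27.0% in controls, so read length and group cannot be told apart. For the 6 hairpins they numbered 68 and 87 reads in Mdd and 131 and 961 in controls. The labels name testis and testicular cells, but the protocol names sperm. The germ cell miRNAs miR-34 and miR-449 were present in every library, at a summed 267966 and 227080 CPM in Mdd and 227963 and 111698 CPM in controls. Control replicate 2 was the lowest for this sum and stood apart in several lists described below. The 2 leading labels differed there. miR-34b had 205396 and 147898 CPM in Mdd and 177672 and 47056 CPM in controls. miR-449a, at 43755 and 32837 CPM in Mdd and 34770 and 47936 CPM in controls, was highest in control replicate 2.

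The 6 hairpins together took 5.67% and 7.39% of miRNA reads in the Mdd libraries and 6.29% and 12.5% in the controls. Control replicate 2 held the most, and the other control lay between the Mdd libraries. The log2 of their summed CPM differed by -0.45, Mdd minus control (exact two-sided permutation p = 0.667), and without control replicate 2 the difference was 0.04. Leaving out control replicate 1 gave -0.94, and scaling to all reads of 18 nt or longer gave -1.36. In these bulk samples a smaller number of cells of a type and less RNA per cell cannot be told apart. By mean level the order was miR-143, the joint miR-199a/miR-199b label, miR-126a, miR-145a, miR-214, miR-199a and miR-199b, and the ranges over 4 libraries overlapped between all neighbours in that order. Within libraries miR-143, the joint label and miR-126a followed in this order in all 4. Next came miR-145a, except in Mdd replicate 2, where it and miR-214 stood above miR-126a.

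**Figure D1:**
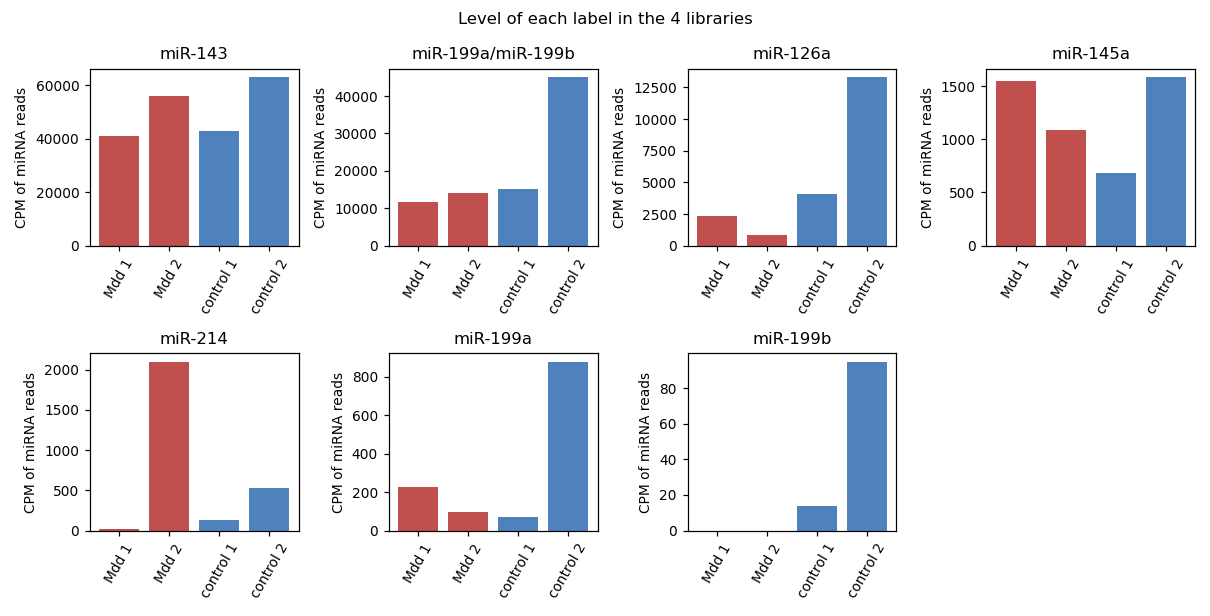
Bars give the CPM of miRNA reads of each label in Mdd replicates 1 and 2 (red) and control replicates 1 and 2 (blue), on axes that start at 0 and differ in scale. The joint miR-199a/miR-199b label and miR-126a were lowest in the 2 Mdd libraries and highest in control replicate 2, whereas miR-143 and miR-145a overlapped.

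miR-126a, the endothelial member, had the lowest p of the labels followed here. It had 464 and 82 reads in Mdd and 294 and 3514 in controls, or 2332 and 872 CPM against 4089 and 13323 CPM. Both Mdd libraries lay below both controls, and control replicate 2 stood 5.48-fold above the mean of the other 3 libraries. It averaged 1602 ± 1032 CPM in Mdd and 8706 ± 6530 CPM in controls (SD, n = 2 each). The fitted log2 fold change was -2.44 (SE 0.87), with an adjusted p of 0.565 over all labels by edgeR's quasi-likelihood test and an unadjusted one of 0.0192. Without control replicate 2 the fold change was -1.18 (adjusted p = 0.993, edgeR), and without control replicate 1 it was -3.12 and passed (adjusted p = 0.00327, edgeR). Without Mdd replicate 1 the fold change was -3.43. Over its 17 alternatives the adjusted p ran from 0.00327 to 0.993 and the fold change was negative in every one. Divided by the usual copies, its reads came to 10.5 and 11.7 in Mdd and 49.0 and 351 in controls.

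The joint miR-199a/miR-199b label, the shared 3p arm, was the second in level. It had 2323 and 1312 reads in Mdd and 1087 and 11891 in controls, which is 11676 and 13956 CPM against 15118 and 45085 CPM. The Mdd libraries lay below the controls, but control replicate 1 was near them and control replicate 2 was 3.32-fold above the mean of the other 3. The means were 12816 ± 1612 CPM in Mdd and 30101 ± 21190 CPM in controls (SD, n = 2 each). The log2 fold change of -1.26 (SE 0.80) did not pass (adjusted p = 0.952, edgeR), and it was -0.11 without control replicate 2 and -1.93 without control replicate 1. It was negative in all 16 alternatives.

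The 5p arms of the same hairpins were rare. miR-199a, whose unshared reads are its 5p arm, had 45 and 9 reads in Mdd and 5 and 231 in controls. In Mdd replicate 1, 44 of the 45 reads were the 18 nt form that begins 4 bases downstream of the mature end, found in no other library, and 44 reads are about the copies of 1 sequence there. The groups overlapped, and the log2 fold change of -1.59 (SE 1.74, adjusted p = 0.992, edgeR) became 1.36 without control replicate 2. Only in control replicate 2 did the reads of miR-199a lie above the floor of 3 counts multiplied by the usual copies. That floor is 132 and 21 reads in Mdd and 18 in control replicate 1, so both fold changes rest on few molecules. miR-199b, read from the 5′ side of its hairpin, had 0 and 0 reads in Mdd and 1 and 25 in controls, and the filter on low counts left it out of the edgeR fit. The 5 edgeR fits with other filters, lengths or libraries that kept it gave adjusted p-values from 0.371 to 0.998, the lowest from 15 nt upward, and it did not pass in any of them. Its most read form carried the seed CCAGUGU, which is that of miR-199a-5p. Its 25 reads in control replicate 2 are fewer than 30, the floor of 3 counts multiplied by the usual copies, so no fold is given.

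miR-214, from the same transcript as miR-199a-2, had 3 and 197 reads in Mdd and 9 and 140 in controls, or 15.1 and 2096 CPM against 125 and 531 CPM. Each group held a high and a low library, so the groups overlapped. Of the 197 reads of Mdd replicate 2, 195 were a single 19 nt form of miR-214-3p that begins 1 base upstream and ends 4 bases short of the mature arm. That form had 1 read in Mdd replicate 1 and 0 in both controls. Control replicate 2 held 9 forms instead, led by 42 reads of a 19 nt form and 39 of the mature arm, and the 9 reads of control replicate 1 were all miR-214-5p. The reads of Mdd replicate 1 and control replicate 1 lie under the floor used for miR-199b. The log2 fold change was 1.57 (SE 1.74, adjusted p = 0.992, edgeR), and leaving out Mdd replicate 2 gave -4.20 while leaving out control replicate 2 gave 3.13.

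miR-143 was the most read of the 6 hairpins. Its levels were 40900 and 55834 CPM in Mdd and 42808 and 63011 CPM in controls, on 8137 and 5249 reads in Mdd and 3078 and 16619 in controls. The groups overlapped, and among all labels its rank by CPM was 6 and 3 in Mdd and 4 and 1 in controls. It averaged 48367 ± 10560 CPM in Mdd and 52910 ± 14285 CPM in controls (SD, n = 2 each), with a log2 fold change of -0.12 (SE 0.81, adjusted p = 0.992, edgeR). The sign was positive with RLE scaling and with DESeq2, both at 0.02, and without control replicate 2 (0.30) or Mdd replicate 1 (0.01). With all reads of 18 nt or longer as the library size it was -1.22. Control replicate 2 stood 1.35-fold above the mean of the other 3 libraries.

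miR-145a, its neighbour, was far rarer. It had 307 and 102 reads in Mdd and 49 and 418 in controls, or 1543 and 1085 CPM against 681 and 1585 CPM. Both Mdd values lay between the controls (log2 fold change 0.21, SE 0.94, adjusted p = 0.992, edgeR). The fold change was -0.36 without control replicate 1, -0.16 without Mdd replicate 1 and 1.10 without control replicate 2. In GRCm38 Mir143 and Mir145a lie on the minus strand at chr18:61649196-61649258 and chr18:61647825-61647894, and GENCODE vM21 places no other gene around them.

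Of the 236 labels with enough reads for the test, edgeR called 0 (0%), and 11 had an unadjusted p under 0.05 (4.66%). DESeq2 called 5 of 389 (1.29%), all lower in Mdd, and gave 28 an unadjusted p under 0.05. Neither tool called any of the labels followed here. Of the 6 that edgeR tested, 1, miR-126a, had an unadjusted p under 0.05. Over all labels edgeR called 7 without control replicate 1, 5 without Mdd replicate 1, 16 without Mdd replicate 2 and 0 without control replicate 2. In Mdd, 2 of the 6 were below both controls, a state found in 51 of all 236 labels (21.6%), and 0 were above both, against 39 labels (16.5%). The median log2 fold change was -0.69 over the 6 and -0.04 over all 236, and 4 of the 6 were negative, against 52.1% of all. Taking all reads of 18 nt or longer as the library size moved the median of all labels to -1.10 and that of the 6 to -1.82, with all 6 negative. RLE scaling gave 3 negative and 3 positive with a median of -0.51, and without control replicate 2 the 6 had 2 negative and a median of 0.70, against 0.32 over all labels. Control replicate 2 was the highest library for 5 of the 6, against 73 of all 236 labels (30.9%).

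**Figure D2:**
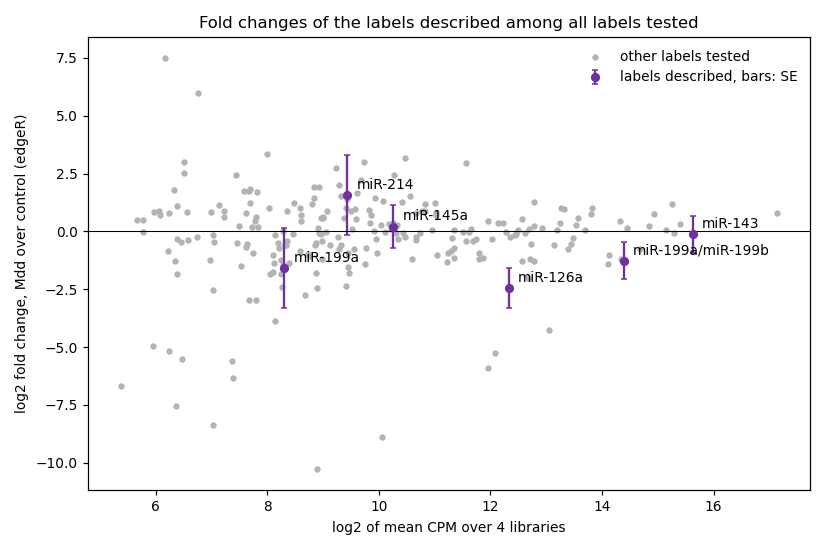
Each point is a label tested with edgeR, with the log2 of its mean CPM on the horizontal axis and its log2 fold change, Mdd over control, on the vertical axis. The 6 labels followed here are purple with bars of 1 SE. miR-126a at -2.44 lies lowest among them and miR-214 at 1.57 highest.

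**Figure D3:**
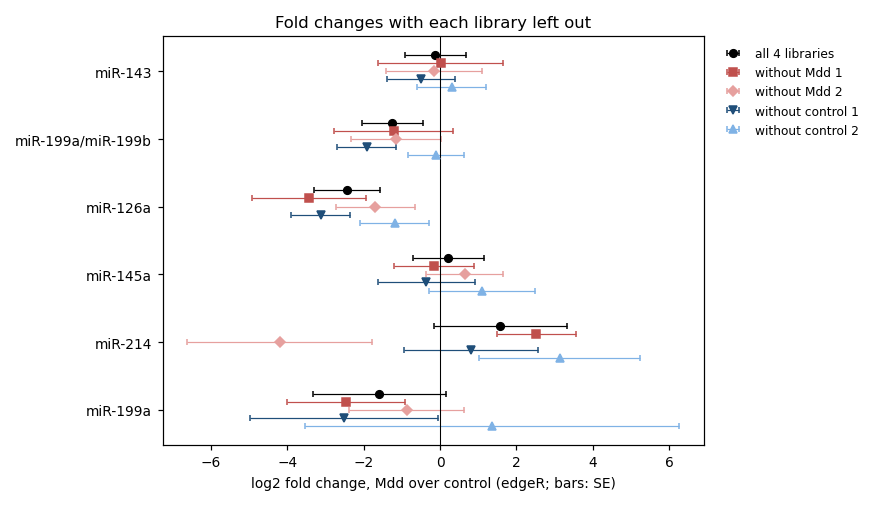
Points give the log2 fold change, Mdd over control, of the 6 tested labels with all 4 libraries (black) and with each library left out, and bars give the SE. miR-214 moves from 1.57 to -4.20 without Mdd replicate 2, and the joint miR-199a/miR-199b label from -1.26 to -0.11 without control replicate 2.

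Ratios between 2 labels of a library do not depend on the scaling. miR-126a stood at 0.0570 and 0.0156 reads per miR-143 read in Mdd and at 0.0955 and 0.211 in controls, a log2 difference of -2.25 that was -1.32 without Mdd replicate 2. The joint miR-199a/miR-199b label stood at 0.285 and 0.25 per miR-143 read in Mdd and 0.353 and 0.716 in controls, a log2 difference of -0.91 that was -0.40 without control replicate 2 and -1.42 without control replicate 1. Both ratios were lower in both Mdd libraries than in either control (exact two-sided permutation p = 0.333 for each, the smallest possible with 2 against 2 samples, and 1 when adjusted over the 6 quantities tested). Control replicate 2 was the highest in both.

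miR-143 reads outnumbered those of its neighbour miR-145a 26.5 and 51.5 times in Mdd and 62.8 and 39.8 times in controls. These ratios overlapped between groups (log2 difference -0.44, exact permutation p = 0.667), and the difference was 0.04 without Mdd replicate 1. The ratio of miR-199 to miR-214, with or without the shared reads, is among the 6 quantities tested but is not described per library. The 3 reads of miR-214 in Mdd replicate 1 and the 9 in control replicate 1 lie under 132 and 18, the floors of 3 counts multiplied by the usual copies. Only its range with a library left out is given, in the last section. The shared miR-199 arm also comes from hairpins outside Dnm3os.

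The 3p arm made up nearly all miR-199 reads, at 98.1% and 99.3% in Mdd and 99.5% and 97.9% in controls. Most of its reads began at the mature 5′ end and so carried the seed CAGUAGU, at 82.3% and 76.6% in Mdd and 81.9% and 83.5% in controls. Reads begun 1 base upstream, which have the seed ACAGUAG, took 11.45% and 12.04% in Mdd and 3.86% and 6.33% in controls. These shares did not overlap between groups (mean difference 6.65 percentage points, exact permutation p = 0.333, the smallest possible). Their 95% Wilson intervals, on reads divided by the usual copies, were 5.29% to 22.6% and 8.34% to 17.8% in Mdd and 1.89% to 7.77% and 5.06% to 7.84% in controls. With each distinct sequence counted once the difference was -1.81 points. The other shift overlapped between groups. Reads begun 1 base downstream, with the seed AGUAGUC, took 6.24% and 11.4% in Mdd and 13.8% and 9.83% in controls.

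The 3′ end of that arm rarely reached the last base of the mature sequence. Reads that did took 0.430% and 0.0762% in Mdd and 2.58% and 3.84% in controls, on 10 and 1 reads in Mdd and 28 and 457 in controls. Those that ended 1 base short, without the final A, took 79.3% and 65.0% in Mdd and 62.3% and 62.8% in controls, and most others ended 2 bases short. The share 1 base short differed by 9.61 percentage points, or 2.49 without Mdd replicate 1 and 16.7 without Mdd replicate 2. For other arms whose mature sequence ends in A, the median share that reached the end was 53.3% and 25.2% in Mdd (12 and 11 arms with at least 100 reads) and 36.0% and 30.7% in controls (10 and 21 arms). Single arms among these ranged from 0% to 95.7% and 88.1% in Mdd and from 0% to 88.3% and 82.5% in controls. For arms ending in C it was 38.7% and 34.0% in Mdd and 37.6% and 43.1% in controls. Arms ending in G, as miR-126a-3p does, had 64.1% and 56.4% in Mdd and 50.8% and 51.7% in controls, and the highest of them stood at 100% in every library. For arms ending in T it was 69.5% and 75.7% in Mdd and 75.5% and 74.1% in controls.

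miR-126a-3p ended differently, with 99.8% and 100% of its reads at the mature 3′ end in Mdd and 93.2% and 95.1% in controls. Divided by the usual copies, the Mdd shares rest on 11 reads in each library. The 95% Wilson intervals on such reads overlapped between groups. They were 74.1% to 100% in both Mdd libraries and 82.8% to 97.8% and 92.3% to 96.9% in controls. The 3p arm held 100% and 96.3% of miR-126a reads in Mdd and 95.2% and 99.1% in controls, and the rest came from the 5′ side of the hairpin. Reads begun 1 base downstream, with the seed GUACCGU, took 0.431% and 25.3% in Mdd and 15.7% and 21.0% in controls. The Mdd libraries thus gave the lowest and the highest share, the lowest on 2 of 464 reads.

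**Figure D4:**
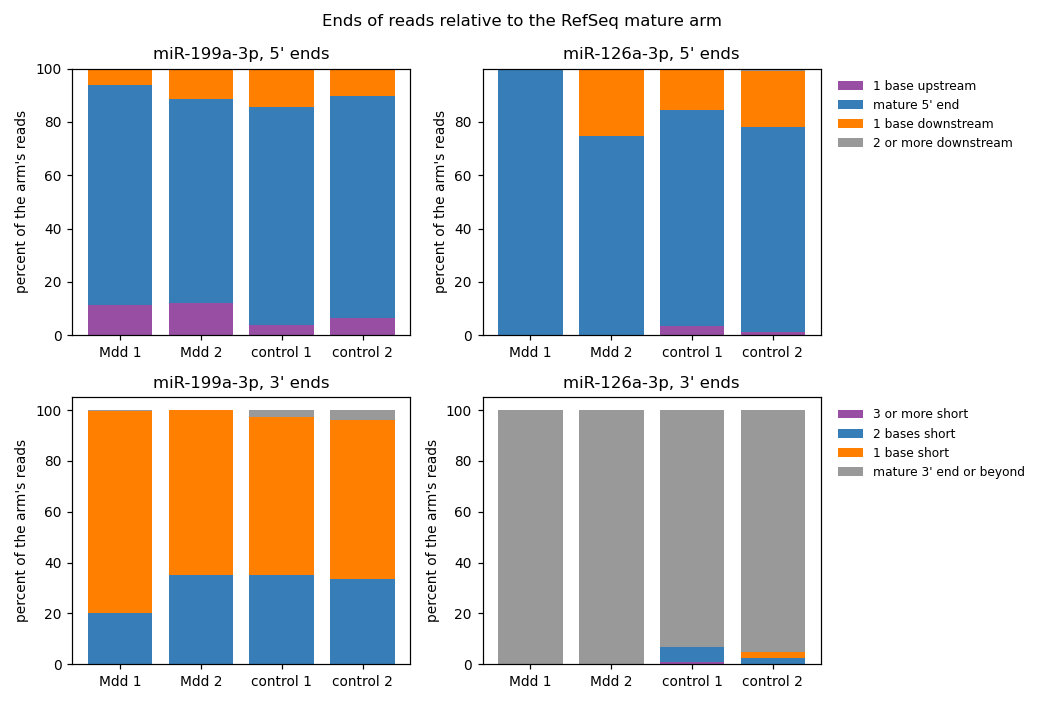
Stacked bars give the percent of reads of miR-199a-3p (left) and miR-126a-3p (right) by the place of their 5′ end (top) and 3′ end (bottom) relative to the RefSeq mature arm, in Mdd replicates 1 and 2 and control replicates 1 and 2. Upstream starts of miR-199a-3p took 11.45% and 12.04% in Mdd and 3.86% and 6.33% in controls, and the arm mostly ended short of the mature 3′ end where miR-126a-3p mostly reached it. Starts of miR-199a-3p 1 base downstream, at 6.24% and 11.4% in Mdd and 13.8% and 9.83% in controls, overlapped between groups.

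The reads of miR-143 fell into a single set of overlapping sequences of 16 forms. The most read form, 21 nt long, took 85.5% and 79.6% of the label in Mdd and 80.4% and 73.9% in controls, which overlap. Its 5′ end was shared by 96.5% and 92.8% of reads in Mdd and 92.5% and 91.8% in controls, a difference of 2.49 percentage points with no overlap (exact permutation p = 0.333, the smallest possible). It was 0.63 points without Mdd replicate 1 and 4.36 without Mdd replicate 2. A 20 nt form lacking the last base was next, with 863 and 527 reads in Mdd and 336 and 2190 in controls. A form with 1 more base at the 3′ end had 4 and 91 reads in Mdd and 7 and 414 in controls.

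miR-145a reads formed 3 sets that shared no stretch of 12 bases. The largest, led by a 23 nt form, took 68.4% and 85.3% of the label in Mdd and 44.9% and 75.1% in controls, and the shares overlapped (exact permutation p = 0.667). Divided by the usual copies, the reads of the label came to 7 and 15 in Mdd and 8 and 42 in controls. Every read of the largest set began at the same base in all 4 libraries. In Mdd replicate 1 a 19 nt form with 104 reads slightly outnumbered the 23 nt form with 99, whereas that short form had 0 reads in Mdd replicate 2 and 0 and 76 in controls. The second set held all but 1 of the remaining reads, with its leading form at 55 and 0 reads in Mdd and 0 and 1 in controls.

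Of the shares of arms and ends, 11 were compared, and 5 had no overlap between groups, each with an exact permutation p of 0.333 and an adjusted p of 0.733. Other shares were computed but not compared. Those begun 1 base downstream in miR-199a-3p and miR-126a-3p, and of miR-199a-3p ending 2 bases short, overlapped. The 5′ end of the largest miR-145a set did not vary. The 3p share of miR-214 was 100% and 99.0% in Mdd and 0% and 79.3% in controls, without overlap. It rests on 3 reads in Mdd replicate 1 and 9 in control replicate 1. A p of 0.333 is also how often groups of 2 libraries that do not differ would show no overlap. Several of the shares describe the same arm, and overlap was not counted over other arms. Of the 81 sequences, 21 were found in all 4 libraries and 28 in control replicate 2 alone. That library had the most miRNA reads, and it held 72 of the 81 sequences and 2064 of all 2783 miRNA sequences.

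Other lists of cell type miRNAs moved with the libraries. The striated muscle list of miR-1, miR-133, miR-206, miR-208 and miR-499 names held 1508 and 1649 CPM in Mdd and 4256 and 67546 CPM in controls over 7 labels, with 3 and 2 labels at 0 in Mdd and 1 and 0 in controls. miR-1a alone stood at 1025 and 723 CPM in Mdd and 1252 and 31052 CPM in controls, and miR-206 of skeletal muscle at 422 and 10.6 CPM against 709 and 16292 CPM. Control replicate 2 was far above the other 3 for these, as it was for miR-126a and the joint miR-199a/miR-199b label. Both miR-206 values in Mdd lie under the floors of 3 counts multiplied by the usual copies, which are 663 and 223 CPM there. All 5 tested striated muscle labels were negative, with a median log2 fold change of -5.27, or -1.50 without control replicate 2, and 0 passed (edgeR).

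The list of other vascular and stromal miRNAs held 77960 and 66684 CPM in Mdd and 79873 and 163539 CPM in controls over 15 labels, with 1 label at 0 in each library but control replicate 2. Its leaders were miR-22 at 17472 and 21583 CPM in Mdd and 23310 and 42889 CPM in controls, and miR-21a at 13667 and 11796 CPM against 15215 and 42290 CPM. Of 14 tested, 4 were positive and 10 negative, 0 passed, and the median was -0.77, or -0.10 without control replicate 2. The blood list of 9 labels summed to 59921 and 50334 CPM in Mdd and 47300 and 6590 CPM in controls. Most of it came from miR-451a of red cells, with 57508 and 47782 CPM in Mdd and 45520 and 5608 CPM in controls, whereas of the 5 tested blood labels 2 were positive and 3 negative. Of its labels 4 and 4 were at 0 in Mdd and 2 and 0 in controls. Epithelial miRNAs had 12254 and 23402 CPM in Mdd and 12058 and 21073 CPM in controls over 10 labels. Of the tested labels of the blood, epithelial and germ cell lists, 0 of 5, 0 of 10 and 0 of 4 passed, with medians of -0.23, 0.02 and 0.90, or 0.35, 0.61 and 0.59 without control replicate 2. The part of other cell types in the levels of miR-126a and miR-199 was not tested.

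**Figure D5:**
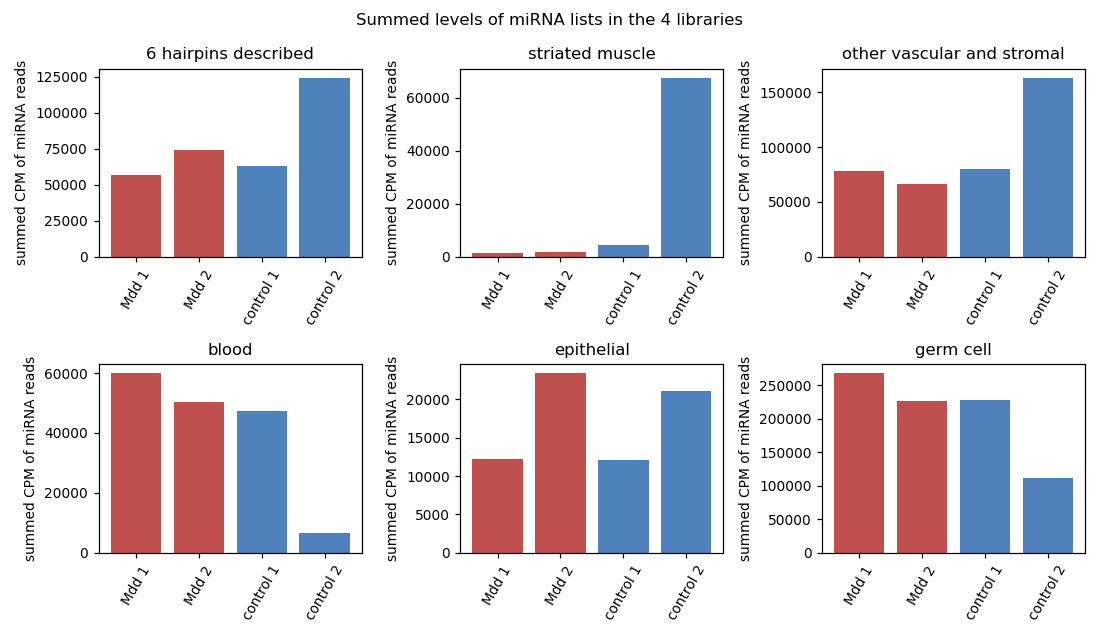
Bars give the summed CPM of the 6 hairpins followed here and of 5 other lists in Mdd replicates 1 and 2 (red) and control replicates 1 and 2 (blue), on axes that start at 0 and differ in scale. Control replicate 2 is highest for the 6 hairpins, striated muscle and other vascular and stromal miRNAs, and lowest for blood and germ cell miRNAs.

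Likeness to other labels was measured as the root mean square difference of centred log2 CPM over the 4 libraries, among 133 labels with a mean of at least 500 CPM. miR-143 was closest to miR-181a at 0.03, then to miR-196a at 0.07 and miR-151 at 0.16, against a median of 0.63. The joint miR-199a/miR-199b label was closest to miR-146a at 0.15 and to miR-26a and miR-21a, both at 0.17, against a median of 1.016. miR-126a was closest to miR-218 at 0.64, then to miR-467e at 0.74 and miR-26b at 0.80, against a median of 1.63. miR-145a was nearest to miR-669a/miR-669p at 0.12, miR-30a at 0.15 and miR-100 at 0.22, against a median of 0.82. miR-214 was nearest to miR-379 at 0.48, a label with 25.1 and 4797 CPM in Mdd and 306 and 2131 CPM in controls, then to miR-712 at 0.96 and miR-497a at 1.17, against a median of 2.54. In Mdd replicate 1 miR-214 had 15.1 CPM, and miR-379, miR-712 and miR-497a had 25.1, 35.2 and 20.1 CPM. All lie under 663 CPM, the floor there of 3 counts multiplied by the usual copies. The likenesses of miR-214 therefore rest in part on very few reads. These likenesses describe 4 libraries, within which all labels share depth and copies.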

How the data were processed

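Small RNA of 2 Mdd and 2 control samples was measured. Per the labels' protocols, TRIzol RNA from sperm was size selected and made into libraries with the MGIEasy kit. Per the file headers, the authors deposited raw read counts of each distinct sequence of 15 to 45 nt, with its length in nt, a mark for a genome match and an annotation by hairpin. Per the submitters' processing notes, mm9 and DESeq2 were used. Not given in the sources used here are the aligner, the trimming and the annotation.

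Files were joined by sequence, an unannotated sequence took the annotation of the first library that gave one, and counts were summed per hairpin label from 18 nt upward. They were tested with edgeR 4.0.16 in R 4.3.3 (quasi-likelihood, TMM, filterByExpr, two-sided, Benjamini-Hochberg over all labels, threshold 0.05), with DESeq2 1.42.0 as an alternative. The SE is the log2 fold change over the root of F. The fit was also run on simulated counts with far less scatter between replicates than these libraries have. That run therefore does not show how the fit performs on these data. Shares and ratios were compared by exact permutation (scipy 1.17.1, Python 3.11.15), whose smallest p is 0.333. Arms were set within 5 nt of the RefSeq mature 5′ end. Usual copies are the peak of the smoothed copy distribution of genome-matched sequences. Intervals (95%) and floors of 3 counts cover counting error only. The hairpins, lists and tests were chosen with earlier results of these data known. All 7 labels with reads were described. Sequences printed are at most the 3 most read of an arm, except where stated, and the labels most alike are 3 for each of the 5 labels with a mean of at least 500 CPM (prior of 0.5 reads). Alternatives were other scalings, filters, tools, lengths and annotations, the replicate block and each library left out. Reads divided by the usual copies were added after seeing the data.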

Additional observations from a re-analysis of the deposited data

How the results depend on the processing

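The count of labels called, 0 in the edgeR fit, was 5 with the library size of all reads of 18 nt or longer, 5 with DESeq2, 6 with a mean CPM of at least 10, 6 with all labels kept, 1 with robust dispersion, 1 from 15 nt, 4 with reads divided by the usual copies and 0 to 16 with a library left out. With the replicate number as a block it was 4, and the log2 fold change of miR-214 was -0.26. Samples of equal number did not deviate together (correlation -0.03 over 236 labels), so the block rests on a number alone. The fold change of miR-143 turned positive with RLE scaling (0.022), DESeq2 (0.020), a mean CPM of at least 10 (0.0065), all labels kept (0.0063) and a minimum of 15 nt (0.037). With the library size of all reads, miR-145a stood at -0.80 and miR-214 at -0.15. With each distinct sequence counted once, the differences in percentage points were 8.63 for miR-199a-3p reads at the mature 5′ end, -1.81 for those 1 base upstream, -2.53 for the shared 5′ end of miR-143 and -7.64 for the first set of miR-145a. Leaving out a library gave log2 fold changes of -0.50 to 0.30 for miR-143, -0.36 to 1.10 for miR-145a, -2.51 to 1.36 for miR-199a and -4.20 to 3.13 for miR-214, and -0.94 to 0.042 for the summed level. It gave -0.91 to 0.042 for the log2 ratio of miR-143 to miR-145a, -3.94 to 2.94 for miR-199 to miR-214 and -4.39 to 3.97 for unshared miR-199a to miR-214. In percentage points it gave -0.74 to 0.82 for the 3p share of miR-199, -0.92 to 2.93 for that of miR-126a and -4.01 to 20.7 for the mature 5′ end of miR-126a-3p. The cause was not tested. Of all alternative values, 28 reversed, 11 counts of calls moved, 1 (miR-126a without control replicate 1) newly passed and 202 did none of these. For shares and ratios the smallest possible p is 0.333, so only their direction could change. The ratios to miR-214 rest on 3 reads in Mdd replicate 1 and 9 in control replicate 1.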
